A study of Mus musculus with 4 samples.

Results

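The collagen gene family was followed in single-cell transcriptomes of mouse liver. Its members were the genes of the deposited feature lists whose symbol had the form Col, number, a, number, and 44 of the 32285 listed genes met this rule, which used no measured value. There was 1 library of mice on a normal control diet (NCD), 2 libraries of mice on a high-fat diet (HFD) and 1 library of mice on the same high-fat diet that also received Jiangtang Qingre Formula (JQF), a traditional Chinese medicine preparation of several herbs. All mice were male C57BL/6J, arrived at 5 weeks of age and were acclimated for 1 week. HFD and JQF mice were fed the 60% fat diet for 14 weeks, after which JQF was given by gavage for 8 weeks, while NCD and HFD mice received distilled water by gavage over the same weeks. The methods of the study count as many liver samples per group as there were libraries, while the labels name no mouse behind a library. The p-values therefore take libraries as units, those of gene tests with a spread pooled over genes, and NCD and JQF had no replicate. The samples carried the labels immune cell and hematopoietic stem cell, although cells with endothelial, epithelial and, in small numbers, stellate markers were among them, so cells were described by markers.

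Collagens are proteins in which 3 chains wind into a triple helix, and most are secreted into the extracellular matrix. Fibrillar collagens, mainly types I, III and V, form the fibres that accumulate in scars. Type IV collagens form the sheet-like network of basement membranes, and 6 genes encode their chains, which assemble as alpha-1 with alpha-2, as alpha-3 with alpha-4 and alpha-5, or as alpha-5 with alpha-6. Type VI collagens form beaded filaments, collagens of the FACIT class sit on the surface of fibrils, multiplexins such as types XV and XVIII lie next to basement membranes, and transmembrane collagens stay anchored in the cell membrane. In the liver, stellate cells and portal fibroblasts are known as the chief source of fibrillar collagen in fibrosis, and sinusoidal endothelium normally rests on a thin matrix without a continuous basement membrane.

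The type IV genes lie in head-to-head pairs. On GRCm38 with GENCODE M21, Col4a4 starts at 82586849 on the minus strand of chromosome 1 and Col4a3 at 82586921 on the plus strand, 72 bases apart. Col4a1 starts at 11312826 on the minus strand of chromosome 8 and Col4a2 at 11312805 on the plus strand, so that these genes share 22 bases. Col4a6 and Col4a5 start 1309 bases apart on chromosome X. Windows of 300 bases, from 250 bases before to 50 bases after the start, were available from RefSeq (GRCm38.p6) for 35 of the 44 genes. They are shown for the pair called lower in HFD than in the single NCD library in endothelium (Col4a4, chr1:82586800-82587099, minus strand, a window that also holds the Col4a3 start). The pair that led in endothelium is also shown (Col4a1, chr8:11312777-11313076, minus strand, which also holds the Col4a2 start). The others are the gene with the largest difference between stellate-marker and endothelial cells (Col1a2, chr6:4505368-4505667, plus strand) and the gene called in the opposite direction (Col13a1, chr10:61979059-61979358, minus strand). Each is printed 5′ to 3′ on the strand of the named gene, and capitals mark matches on either strand to the CCAAT box, to the GC box GGGCGG and to the TATA motif TATAAA, with no overlap between matches.
Col4a4: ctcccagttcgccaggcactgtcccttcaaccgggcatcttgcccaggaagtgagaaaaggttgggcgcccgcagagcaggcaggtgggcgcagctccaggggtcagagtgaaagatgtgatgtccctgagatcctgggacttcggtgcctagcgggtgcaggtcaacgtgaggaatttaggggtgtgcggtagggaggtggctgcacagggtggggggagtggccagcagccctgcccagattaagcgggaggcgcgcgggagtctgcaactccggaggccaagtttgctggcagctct
Col4a1: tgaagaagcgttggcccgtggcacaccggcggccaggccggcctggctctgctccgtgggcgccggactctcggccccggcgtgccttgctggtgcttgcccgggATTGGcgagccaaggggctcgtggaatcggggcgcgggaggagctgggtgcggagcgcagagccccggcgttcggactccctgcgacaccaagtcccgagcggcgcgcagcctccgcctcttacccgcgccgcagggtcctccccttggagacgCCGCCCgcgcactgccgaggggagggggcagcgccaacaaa
Col1a2: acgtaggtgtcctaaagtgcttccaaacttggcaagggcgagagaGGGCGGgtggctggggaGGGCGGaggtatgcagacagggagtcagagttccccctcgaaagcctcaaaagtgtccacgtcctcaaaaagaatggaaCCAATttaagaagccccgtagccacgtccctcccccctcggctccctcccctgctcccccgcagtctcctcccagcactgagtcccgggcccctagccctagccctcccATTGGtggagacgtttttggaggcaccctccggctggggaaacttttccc
Col13a1: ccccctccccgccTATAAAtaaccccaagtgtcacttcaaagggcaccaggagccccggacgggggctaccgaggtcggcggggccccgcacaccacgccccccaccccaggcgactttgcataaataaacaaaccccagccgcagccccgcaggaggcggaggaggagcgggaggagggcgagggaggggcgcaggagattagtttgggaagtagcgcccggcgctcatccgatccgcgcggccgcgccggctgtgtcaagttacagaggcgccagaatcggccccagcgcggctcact
The Col4a4 window held none of the motifs. The Col4a1 window held 1 CCAAT and 1 GGGCGG, the Col1a2 window 2 CCAAT and 2 GGGCGG, and the Col13a1 window 1 TATAAA. Among all 32851 windows in the table, 37.4% held CCAAT, 35.7% GGGCGG and 13.6% TATAAA, and of the 38 collagen windows 13, 23 and 5 did.

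The analysis kept a cell if it had 500 or more detected genes and no more than 20% of its UMIs from mitochondrial genes, which left 5975 cells in NCD, 6516 and 10259 in HFD replicates 1 and 2, and 8540 in JQF, with 67615639 to 108062769 UMIs per library. A UMI is a distinct captured RNA molecule, and since each molecule is counted once at its 3′ end, levels are given as CPM (counts of the gene scaled by the total UMIs of the cell group) and were compared between genes without a length term. Cells were gated on marker UMIs that include no collagen. The endothelial gate held 3850, 104, 1166 and 595 cells (NCD, HFD replicate 1, HFD replicate 2 and JQF, an order kept throughout), the epithelial gate 31, 197, 115 and 380, the immune gate 1755, 5986, 8344 and 7265, and the gate on stellate markers 19, 2, 19 and 42. Pairs of libraries shared 14 to 30 cell barcodes. The NCD library stood apart, with a median of 13081 UMIs per cell against 7608 to 8884 in the others and with endothelial cells making up 64.4% of its kept cells. RNA in barcodes of at most 100 UMIs that were not called as cells, referred to as free RNA, carried 298 CPM of type IV collagens in NCD against 24.4 to 43.7 CPM in the other libraries.

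The gate on stellate markers did not hold the same cells in every library, and it is therefore called the stellate-marker gate. In NCD its 19 cells carried 1618 UMIs of the hepatic stellate list, led by 761 UMIs of Reln, 278 of Hgf, 247 of Rgs5, 212 of Colec11 and 117 of Lrat, the retinol-storing enzyme of stellate cells, and of the 7 fibroblast markers Gsn alone was detected, with 31 UMIs. In HFD replicate 2 the 19 cells carried 6081 UMIs of the fibroblast list, of which 4122 were Gsn. The list also gave 724 UMIs of Pi16, 640 of Dpt and 484 of Clec3b, while Lrat, Reln, Colec11 and Rgs5 were at 0. The 42 JQF cells carried 11383 UMIs of the fibroblast list (7802 of them Gsn), 1071 of the smooth muscle list and 573 of the hepatic stellate list. For a split by the leading list, Hgf and Ngfr were left out of the hepatic stellate list and Gsn out of the fibroblast list. Hepatic stellate markers led in 18 NCD and 5 JQF cells. Fibroblast markers led in 1, 19 and 36 cells of HFD replicate 1, HFD replicate 2 and JQF. The 2 cells of HFD replicate 1 had 0 UMIs of the hepatic stellate list. In them 1 UMI equals 146 CPM, 2 UMIs 292 CPM and 3 UMIs 438 CPM. Values under 438 CPM in this gate and library therefore lie under the floor of 3 counts. The NCD cells also carried the endothelial list at 3250 CPM, against 10951 CPM in the NCD endothelial gate and 0, 4.02 and 222 CPM in the stellate-marker gates of the other libraries. Diet and cell content cannot be told apart in this gate. No test of diet was made in it, since its fewest cells in a library were 2, under the minimum of 50.

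All 44 collagens had at least 1 UMI in a kept cell, and 7 of them (Col2a1, Col6a4, Col9a1, Col9a2, Col11a1, Col22a1 and Col26a1) had fewer than 20 over the 4 libraries. The family held 83324, 4968, 16400 and 16235 UMIs. In NCD, 59.0% of these were type IV and 33.6% transmembrane, which was nearly all Col13a1. The most abundant members over all libraries were Col4a1 with 34760 UMIs, Col13a1 with 32786 and Col4a2 with 22476, whereas Col3a1, the first fibrillar member apart from Col27a1 and Col5a2, had 2491. The 3 leading members were also the 3 highest collagens of the endothelial gate, whose cells were most frequent in NCD.

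**Figure D1:**
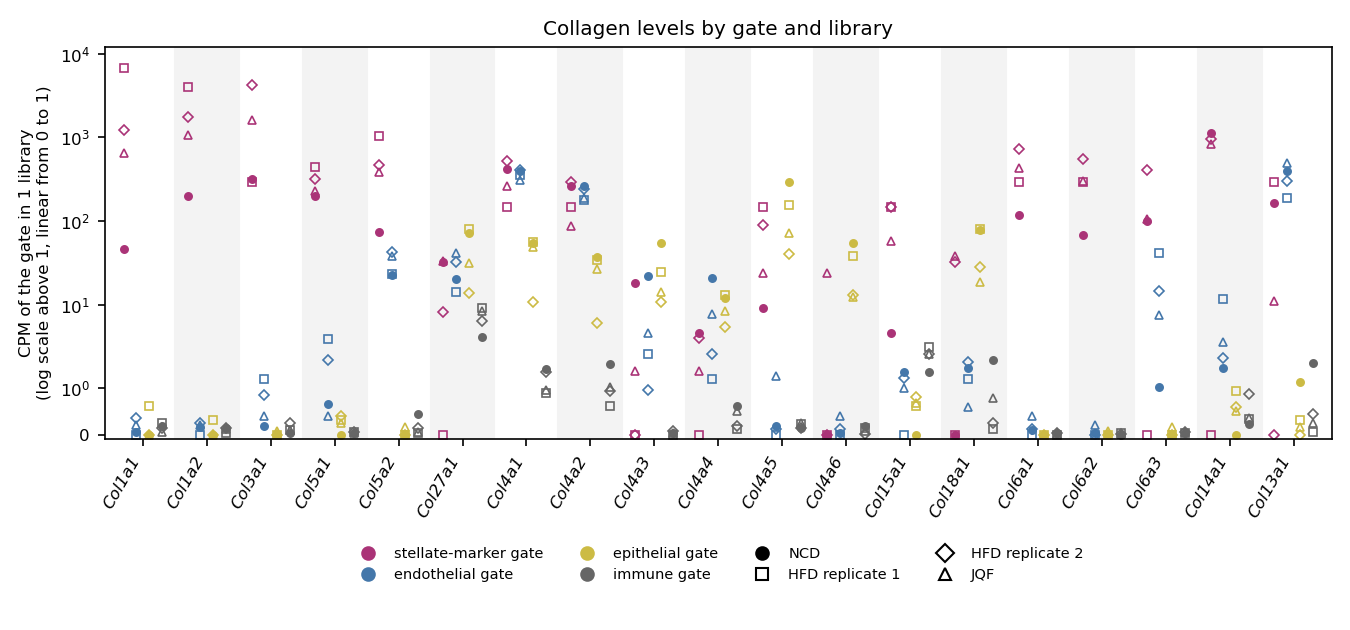
Level of 19 collagens in each gate and library, as CPM on an axis that is logarithmic above 1 and linear from 0 to 1; colours stand for gates and symbols for libraries, with no error drawn. Col1a1, Col1a2 and Col3a1 lie above 40 CPM in the stellate-marker gate of every library and under 2 CPM in the endothelial gate, while Col4a1 and Col4a2 lie at similar heights in both.

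The chains of types I and III were higher in the stellate-marker than in the endothelial gate. Col3a1, the chain of type III collagen, was at 319, 292, 4181 and 1602 CPM in this gate and at 0.193, 1.30, 0.844 and 0.400 CPM in the endothelial gate. Col1a2, the second chain of type I collagen, was at 196, 3946, 1757 and 1074 CPM, with 43, 27, 437 and 677 UMIs behind these values. Col1a1, its partner chain, was at 45.6, 6722, 1234 and 643 CPM. Every library of the stellate-marker gate exceeded every library of the endothelial gate for these 3 genes. For Col3a1 the HFD replicate 1 value of 292 CPM stood for 2 UMIs, under the floor of 3 counts. The Col1a1 value of HFD replicate 1 rested on 2 cells with 46 Col1a1 UMIs, of which 43 were in the cell that no marker list led. These 2 cells also carried the myofibroblast activation list at 37118 CPM, against 123, 253 and 1856 CPM in NCD, HFD replicate 2 and JQF, with 235 of its 254 UMIs from Spp1, 15 from Timp1 and 1 from Acta2, and its part in the Col1a1 level was not tested. Levels of Col1a1, Col1a2 and Col3a1 were lowest in NCD among the libraries with at least 10 such cells, and the cells of NCD were also the ones led by hepatic stellate markers.

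Cells led by the hepatic stellate list could be set side by side in NCD and JQF. Col14a1, a FACIT collagen, was at 1122 CPM in the 18 NCD cells and at 1137 CPM in the 5 JQF cells. Col3a1 was at 320 and 478 CPM, Col1a1 at 45.8 and 49.5 CPM, Col5a1 at 197 and 198 CPM, Col4a1 at 417 and 379 CPM, and Col6a1 at 119 and 313 CPM. With 1 library each these pairs have no test, and the Col1a1 values rested on 10 and 3 UMIs. In fibroblast-list-led cells of HFD replicate 2 and JQF, Col1a1 was at 1234 and 729 CPM, Col3a1 at 4181 and 1769 CPM and Col14a1 at 953 and 815 CPM. In these cells Col6a5 (125 and 69.6 CPM), Col5a3 (217 and 36.6 CPM) and Col12a1 (121 and 47.6 CPM) were present as well, and no Col6a5 or Col5a3 UMI was found in the NCD cells, which allows up to 13.7 CPM at this depth. HFD replicate 2 was above JQF for all 6 of these genes, a description of 2 libraries. Its stellate-marker gate also carried the stomach genes Tff1, Gkn1 and Gkn2 at 213 CPM (53 UMIs), against 0, 0 and 1.59 CPM in NCD, HFD replicate 1 and JQF. The endothelial and immune gates of HFD replicate 2 held them at 186 and 155 CPM, and their part in the collagen levels was not tested. The Scrublet alternative removed the cells with the highest doublet scores at a preset rate of 0.8% per 1000 barcodes, without Scrublet's own threshold. It took out all 19 stellate-marker cells of HFD replicate 2 and left 33 of the 42 of JQF, and 1 of the 5 stellate-list-led cells of JQF.

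Between gates, UMIs were summed per library and gate and compared with the quasi-likelihood test of edgeR with the library as a block, Benjamini-Hochberg adjustment over all genes and a threshold of 0.05. The sum of 2 cells of HFD replicate 1 did not enter this fit. Of the 44 collagens 28 passed the filter on low counts, and 17 of these were higher and 1 lower in the stellate-marker than in the endothelial gate, whereas 9.98% of the 15351 genes tested were higher and 11.1% lower. The median log2 fold change was 4.70 over the 28 collagens and -0.22 over all genes tested. The filter used the same sums, so a member could pass it through the gate in which it was high. Counts and medians over the 28 members, here and below, therefore describe the members that passed and not the whole family. By class, 5 of 7 tested fibrillar members were higher, as were 4 of 4 of type VI, 3 of 5 of the FACIT class, both multiplexins and 2 of 6 of type IV.

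The largest differences were shared by types I, III and VI. Col1a2 was higher by 11.34 on the log2 scale (SE 0.74, adjusted p = 1.67e-06 by edgeR's quasi-likelihood test), Col3a1 by 11.25 and Col1a1 by 11.06. Col6a2 and Col6a1, which encode chains of the type VI beaded filament, differed by 11.10 and 10.48, and Col6a3 by 4.63. Levels of Col6a1 were 119, 292, 728 and 432 CPM in the stellate-marker gate and at most 0.400 CPM in the endothelial gate. Among the fibril-associated collagens, Col14a1 differed by 8.19, Col16a1 by 8.13 and Col12a1 by 7.65. Type V chains followed with 7.62 for Col5a1 and 2.88 for Col5a2, of which the second was also present in endothelium at 22.9, 23.4, 42.8 and 37.6 CPM. The calls of Col1a1, Col1a2, Col3a1, Col4a5, Col5a1, Col6a1, Col6a2, Col12a1, Col14a1, Col15a1 and Col16a1 were made under all 13 alternatives, of which the strict gate, where a cell may hold no UMI of another gate's markers, had 1 stellate-marker sum (JQF) and took its spread from the other gates. The call of Col5a2 was lost without HFD replicate 2 (log2 fold change 2.55 to 3.32 over the fits with 1 library left out) and without JQF, and that of Col18a1 in the same fits and with Scrublet doublets removed. The call of Col8a1 was lost in these and in the strict gate, and the call of Col6a3 in the strict gate alone (2.36, adjusted p = 0.234). Col9a3 passed the filter with 0 UMIs in the stellate-marker gate and gets no fold.

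**Figure D2:**
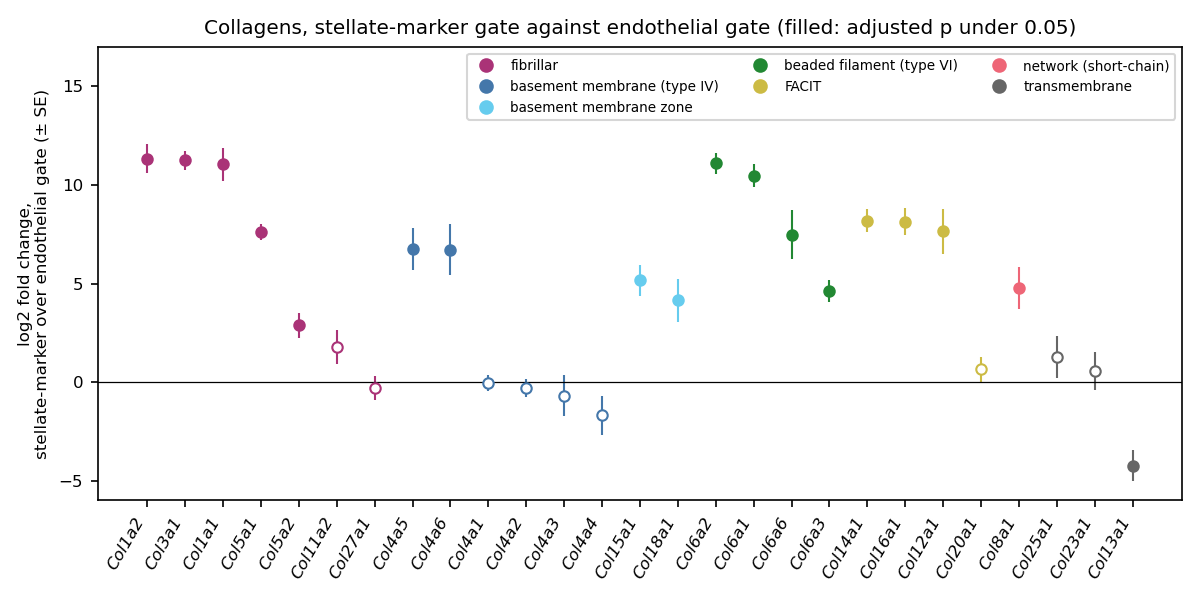
Log2 fold change of stellate-marker over endothelial cells for 27 of the 28 tested collagens (Col9a3, at 0 UMIs in the stellate-marker gate, is not drawn), with bars for the standard error, colours for the class and filled points for an adjusted p under 0.05. Type I, III and VI members reach above 10, Col4a1 and Col4a2 lie at -0.05 and -0.29, and Col13a1 lies at -4.23.

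Type IV chains differed in the gates that held them. Col4a1 was at 399, 349, 407 and 310 CPM in the endothelial gate and at 415, 146, 527 and 265 CPM in the stellate-marker gate, and the ranges overlapped. Its log2 fold change between these gates was -0.05 (SE 0.40, adjusted p = 0.961, edgeR), and that of its partner Col4a2 was -0.29 (SE 0.46, adjusted p = 0.728), neither of which was called. A p-value above the threshold does not show equal levels, and in the strict gate, which kept 2, 1, 7 and 17 stellate-marker cells, the fitted values were -3.07 for Col4a2 (adjusted p = 0.0431) and -0.72 for Col4a1 (adjusted p = 0.585), from the JQF stellate-marker sum alone and with a spread taken from the other gates. The NCD part of the stellate-marker values was measured beside 3250 CPM of endothelial markers, and its part in the Col4a1 level was not tested.

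Set against immune cells, the type IV chain Col4a1 was higher in all 3 other gates. The difference was 7.95 on the log2 scale for endothelial cells (SE 0.49), 7.90 for stellate-marker cells and 4.79 for epithelial cells. Of the 28 tested members, 22 were higher and 0 lower in the stellate-marker gate than in the immune gate (all genes: 39.8% called, 16.8% higher and 22.9% lower). At an unadjusted p under 0.05 there were 23 of these collagens and 7455 of all 15351 genes, and DESeq2 called 24 and 6336. In the endothelial gate 16 collagens were higher and 1 lower (all genes: 51.0% called, 22.0% higher and 29.0% lower), and in the epithelial gate 13 were higher and 1 lower (56.5% called, 28.5% higher and 28.0% lower). The collagen lower in endothelium was Col11a2, at -1.79 (SE 0.45), and the one lower in epithelium was Col15a1, at -2.14 (SE 0.75). The Col11a2 call was lost in the strict gate (adjusted p = 0.0898), and the Col15a1 call in the strict gate, without HFD replicate 1 and without JQF (adjusted p up to 0.257). The call of Col16a1 in endothelium (2.19, adjusted p = 0.0436) rested on 8 endothelial UMIs and was lost under 8 of 13 alternatives. Those of Col6a2 on 4 and Col6a1 on 10 endothelial UMIs were lost under 4 and 3, with Col6a1 at 0.15 in the strict gate, and that of Col3a1 was lost in the strict gate. In epithelium the calls of Col12a1 and Col9a3 were lost under 4 and 3 of 14 alternatives, that of Col5a1 under 2 of 14 and that of Col6a6 under 2 of 13.

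Chains alpha-5 and alpha-6 were higher in epithelial than in endothelial or immune cells of every library. Col4a5 was at 291, 157, 40.0 and 71.8 CPM in the epithelial gate, against at most 1.40 CPM in the endothelial and 0.259 CPM in the immune gate. In the stellate-marker gate it was at 9.12, 146, 88.5 and 23.8 CPM, above the epithelial level in HFD replicate 2, though under the 126 CPM of its epithelial cells without stomach genes. Its neighbour Col4a6 was at 55.1, 38.2, 13 and 12.4 CPM in epithelial cells and at 0, 0, 0 and 23.8 CPM in stellate-marker cells, which in JQF was the higher of the pair. The log2 fold changes over immune cells were 8.99 (SE 0.85, adjusted p = 2.24e-06, edgeR) and 7.98 (SE 0.81), and both genes were also higher in stellate-marker than in endothelial cells, by 6.78 and 6.72. All 15 Col4a6 UMIs of the stellate-marker gate lay in 3 JQF cells. Without JQF the gate held 0 of them, so the fitted value of -3.03 over endothelium is no measure of size or direction. Col4a3 was high in epithelium too, at 55.1, 24.5, 10.6 and 14 CPM (8.45 over immune cells), and Col4a4 at 12, 13, 5.40 and 8.38 CPM (4.81).

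Other epithelial members were Col18a1, whose product carries the endostatin domain, and the FACIT gene Col16a1. Col18a1 was at 77.9, 80.8, 28.4 and 18.6 CPM and was 5.91 above immune cells on the log2 scale (SE 0.87). Free RNA carried Col18a1 at 38.9, 14.6, 11.9 and 35.6 CPM, so the JQF epithelial value did not exceed the JQF free RNA. In 54 of the 115 epithelial cells of HFD replicate 2, the stomach genes Tff1, Gkn1 and Gkn2 made up 1% or more of the UMIs. Without those cells Col4a5 of that library was at 126 CPM, Col4a6 at 44.3, Col18a1 at 94.7 and Col27a1 at 38.8 in place of 13.6 CPM, while the other libraries did not change. The NCD epithelial gate also carried hepatocyte markers at 16579 CPM, against 1157 to 4656 CPM in the others. In an added fit of the 31 NCD epithelial cells against HFD, 0 of 13 collagens were called by edgeR, 0 were at an unadjusted p under 0.05, and 0.0% of all genes tested were called. Without the cells that carried stomach genes, 0 of 12 collagens were called and again 0.0% of all genes, and Col16a1 (3.37, SE 0.95, adjusted p = 0.430, edgeR) and Col4a5 (-1.02, SE 0.29, adjusted p = 0.442) were the 2 at an unadjusted p under 0.05. Over all genes there were 590 of 14360 with the stomach-gene cells and 1266 of 13170 without them at an unadjusted p under 0.05. Between JQF and HFD the same fits called 0 of 13 collagens against 0.0696% of all genes with the stomach-gene cells, and 0 of 12 against 0.418% without them. At an unadjusted p under 0.05 there were 0 and 3 collagens, and the 3 were Col18a1 (-2.02, SE 0.34, adjusted p = 0.0862, edgeR), Col4a6 (-1.50, adjusted p = 0.161) and Col4a5 (-0.76, adjusted p = 0.375). Over all genes there were 503 of 14360 and 1682 of 13170.

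**Figure D3:**
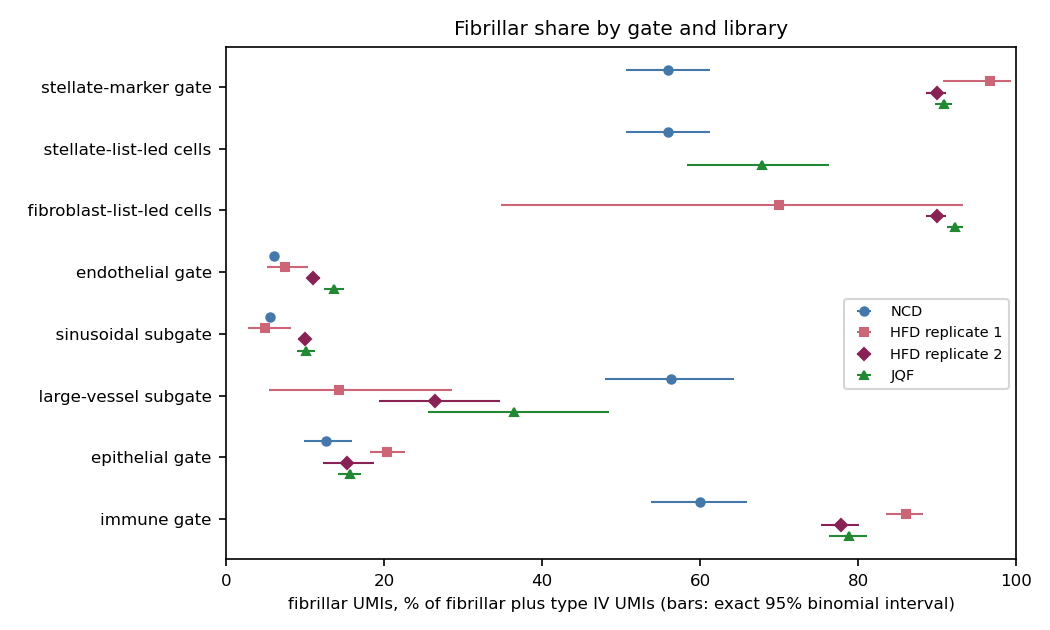
Fibrillar UMIs as a percentage of fibrillar plus type IV UMIs for each gate or subgate (rows) and library (colours and symbols), with exact 95% binomial intervals as bars. Stellate-marker cells lie at 56.0% to 96.7% and endothelial cells at 6.0% to 13.6%, and the immune gate lies between 60% and 86.0%.

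The balance of fibrillar against type IV collagen was taken as the fibrillar share of the UMIs of both classes, which does not depend on depth. In the stellate-marker gate it was 56.0% in NCD (95% Clopper-Pearson interval 50.6 to 61.2, 197 fibrillar and 155 type IV UMIs), 96.7% and 90.0% in the HFD libraries and 90.9% in JQF. In the endothelial gate it was 6.0%, 7.47%, 11% and 13.6%. The share was thus higher in the stellate-marker gate of 4 of 4 libraries, by 73.9 percentage points ± 16.8 (SD, n = 4). The exact two-sided permutation test gave p = 0.125, the smallest value that 4 libraries allow. The HFD replicate 1 unit of this test was 2 cells with 89 fibrillar and 3 type IV UMIs. Of the 89 UMIs, 82 lay in the cell that no marker list led. Stellate-list-led cells gave 56.0% in NCD and 67.9% in JQF, and fibroblast-list-led cells gave 90.0% in HFD replicate 2 and 92.3% in JQF. The NCD value depended on the gate, since the 2 NCD cells of the strict gate gave 94.7% (18 of 19 UMIs). The share of HFD replicate 1 was 70.0% in the single cell that the strict gate kept. With Scrublet doublets removed no stellate-marker cell of HFD replicate 2 remained. Intervals cover counting error only.

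The epithelial gate was also a type IV compartment, with shares of 12.7%, 20.4%, 15.2% and 15.6%. The immune gate gave 60%, 86.0%, 77.8% and 78.8%, but from few UMIs per cell, and the fibrillar part was mostly Col27a1 and Col11a2 rather than types I and III. Col27a1, a fibrillar gene best known from cartilage, had 91, 553, 570 and 710 of the 156, 757, 914 and 901 fibrillar immune UMIs. It was also the main fibrillar UMI source in epithelium, at 71.9, 80.5, 13.6 and 31.2 CPM. With the minor fibrillar members left out of the class and types XV and XVIII added to the basement membrane side, the mean immune share fell from 75.7% to 31.6%, and the epithelial mean from 16.0% to 0.731%. In large-vessel endothelial cells the share was 56.3%, 14.3%, 26.5% and 36.5%, against 5.56%, 4.96%, 9.92% and 10.0% in sinusoidal cells.

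Col13a1, which encodes a transmembrane collagen, was the one member called higher in endothelium than in stellate-marker cells. It was at 398, 187, 297 and 490 CPM in the endothelial gate, with 26806, 144, 2463 and 2452 UMIs. In the stellate-marker gate it was at 164, 292, 0 and 11.1 CPM. The 292 CPM of HFD replicate 1 was above its endothelial level but stood for 2 UMIs, under the floor of 3 counts. These 2 cells did not enter the fit. The log2 difference of -4.23 (SE 0.78, edgeR adjusted p = 0.00227) was not called without JQF (-3.35, adjusted p = 0.123). Over immune cells it was called higher at 5.33, but in the strict gate, which tested JQF cells alone, the fitted difference turned to -6.01 (adjusted p = 0.855). Sinusoidal cells held nearly all of it, at 403, 300, 334 and 567 CPM, whereas large-vessel cells were at 24.1, 6.40, 17.5 and 6.66 CPM, from 1 to 5 UMIs per library. Col4a1 was at 402, 418, 421 and 344 CPM in sinusoidal and at 154, 160, 210 and 96.5 CPM in large-vessel cells.

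Whether collagens differed with the diet was tested in gates with at least 50 cells in every library. The HFD pair left 1 residual degree of freedom, and NCD and JQF, with 1 library each, had no spread of their own. edgeR estimates the spread of a gene with help from all genes. Its p-values therefore rest largely on this pooled spread and not on the HFD pair alone. In the endothelial gate 17 collagens passed the filter. Between HFD and NCD, 1 of them was higher and 3 were lower, against 6.23% higher and 7.72% lower among all 13506 genes tested. The 3 lower members were Col4a3, Col4a4 and Col13a1, and the higher one was Col6a3. Members that were not called included Col4a1 (-0.21, SE 0.25, adjusted p = 0.699), Col4a2 (-0.45, adjusted p = 0.258), Col5a2 (0.54, adjusted p = 0.245) and Col27a1 (0.28, adjusted p = 0.666). In an interaction test between the endothelial and the immune gate, Col4a3, Col13a1 and Col5a2 were called for the difference between HFD and NCD, that is 3 of 29 collagens, near the 8.34% of all genes. The immune side of Col4a3 held 1, 0, 7 and 3 UMIs, so nothing is read from its call.

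Col4a3 and Col4a4, the head-to-head pair printed above, were highest in NCD endothelium. Col4a3 was at 21.7 CPM in NCD from 1464 UMIs, at 2.60 and 0.965 CPM in the HFD libraries from 2 and 8 UMIs, and at 4.6 CPM in JQF from 23 UMIs. Col4a4 was at 20.9, 1.30, 2.53 and 7.80 CPM from 1406, 1, 21 and 39 UMIs. For both genes the exact 95% Poisson interval of NCD (20.6 to 22.9 and 19.8 to 22.0 CPM) lay above those of the other 3 libraries. The log2 fold change of HFD over NCD was -4.33 for Col4a3 (SE 0.57, adjusted p = 3.26e-08, edgeR) and -3.28 for Col4a4 (SE 0.50, adjusted p = 9.53e-07), both called under all 8 alternatives. Without HFD replicate 1 the values were -4.60 for Col4a3 and -3.15 for Col4a4, and without HFD replicate 2 they were -3.23 and -4.17. Col4a3 in free RNA was at 10.0, 1.20, 0.264 and 1.15 CPM and Col4a4 at 11.5, 1.67, 0.264 and 1.15 CPM, so free RNA was high in the same library and remained under the endothelial level there. The part of free RNA was not tested.

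Most Col4a3 and Col4a4 UMIs of NCD, HFD replicate 2 and JQF lay in sinusoidal cells. In the sinusoidal subgate (3625, 66, 1034 and 510 cells) Col4a3 was at 22.1, 2.42, 1.12 and 5.60 CPM and Col4a4 at 21.1, 0, 2.65 and 8.76 CPM. Large-vessel cells (16, 16, 27 and 32) held 0 Col4a3 UMIs in every library, which allows up to 14.5, 19.2, 10.5 and 9.99 CPM. Only in NCD did this limit lie under the sinusoidal level. Among sinusoidal cells the fold changes were -4.28 (SE 0.57, adjusted p = 6.25e-12, edgeR) and -3.23 (SE 0.50, adjusted p = 6.60e-09), and these were the 2 of 14 tested collagens that were called, both lower, against 13.1% of all genes called, 5.42% higher and 7.72% lower. DESeq2 did not call Col4a4 there (adjusted p = 0.0741). Without HFD replicate 1 the sinusoidal values were -4.40 for Col4a3 and -3.09 for Col4a4, and without HFD replicate 2 that of Col4a3 was -3.36. Col4a4 had 0 UMIs in the sinusoidal cells of HFD replicate 1, so its fitted value of -11.97 without HFD replicate 2 is no measure of size. In NCD, 17.4% of endothelial cells had a Col4a3 UMI, against 0.0570% of immune cells, with medians of 15762 and 9891 UMIs per cell. After thinning each cell to 3000 UMIs the endothelial shares were 5.68%, 0%, 0.32% and 1.31%, from 3360, 94, 937 and 534 cells.

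Detection of partner chains in the same cells was counted in the endothelial gate. Of the 668 NCD endothelial cells with Col4a3, 331 also had Col4a4, that is 49.6%, against 9.59% of the cells without Col4a3. Cells with Col4a3 were deeper, with a median of 19900.5 UMIs against 14920.5. For Col4a1 and Col4a2 the shares were 88.8% and 33.2%, with medians of 17008 and 1631 UMIs, so that most of the cells without Col4a1 were shallow. In HFD replicate 1, HFD replicate 2 and JQF these shares were 69.4%, 73.3% and 73.8% of the 85, 920 and 470 cells with Col4a1, against 21.1%, 37.0% and 40% of the others. For Col4a3 and Col5a2, a type V chain, they were 16.6% and 14.2% in NCD. The other libraries had 2, 7 and 14 cells with Col4a3, of which 0, 0 and 3 also had Col4a4, so the Col4a3 shares describe NCD alone.

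Col13a1 in the endothelial gate was lower in HFD than in NCD by -0.82 on the log2 scale (SE 0.25, adjusted p = 0.0189, edgeR). It was not called by DESeq2, with DESeq2 size factors or with Scrublet doublets removed, and the adjusted p over 8 alternatives reached 0.159. The value was -0.54 without HFD replicate 1 and -1.26 without HFD replicate 2. Among sinusoidal cells the fold change was -0.46 and was not called (adjusted p = 0.250). Free RNA of NCD held 175 CPM of Col13a1, against 2.15, 16.6 and 12.5 CPM elsewhere. The share of large-vessel cells in the endothelial gate was 16 of 3850, 16 of 104, 27 of 1166 and 32 of 595 cells, which moved with the library as well.

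Col6a3 was the member that rose, and its level was higher in large-vessel than in sinusoidal cells of every library. In the endothelial gate it was at 1.04, 41.5, 14.7 and 7.60 CPM, from 70, 32, 122 and 38 UMIs, a log2 difference of 4.43 (SE 0.58, adjusted p = 3.94e-08, edgeR) that was called under all 8 alternatives and was 3.70 without HFD replicate 1 and 5.15 without HFD replicate 2. In large-vessel cells it was at 9.64, 153, 154 and 83.2 CPM from 2, 24, 44 and 25 UMIs, and in sinusoidal cells at 0.469, 4.83, 4.46 and 1.22 CPM from 31, 2, 32 and 5 UMIs. The remaining Col6a3 UMIs lay in endothelial cells of neither subgate. NCD was lowest in both subgates. The sinusoidal fold change was 3.14 and was not called (adjusted p = 0.0757), and large-vessel cells were too few in every library for a test. Col6a1 and Col6a2, the usual partners of the alpha-3 chain, had 7, 0, 1 and 2 UMIs and 3, 0, 0 and 1 UMIs in the endothelial gate. The part that the share of large-vessel cells has in the gate's fold change was not tested.

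**Figure D4:**
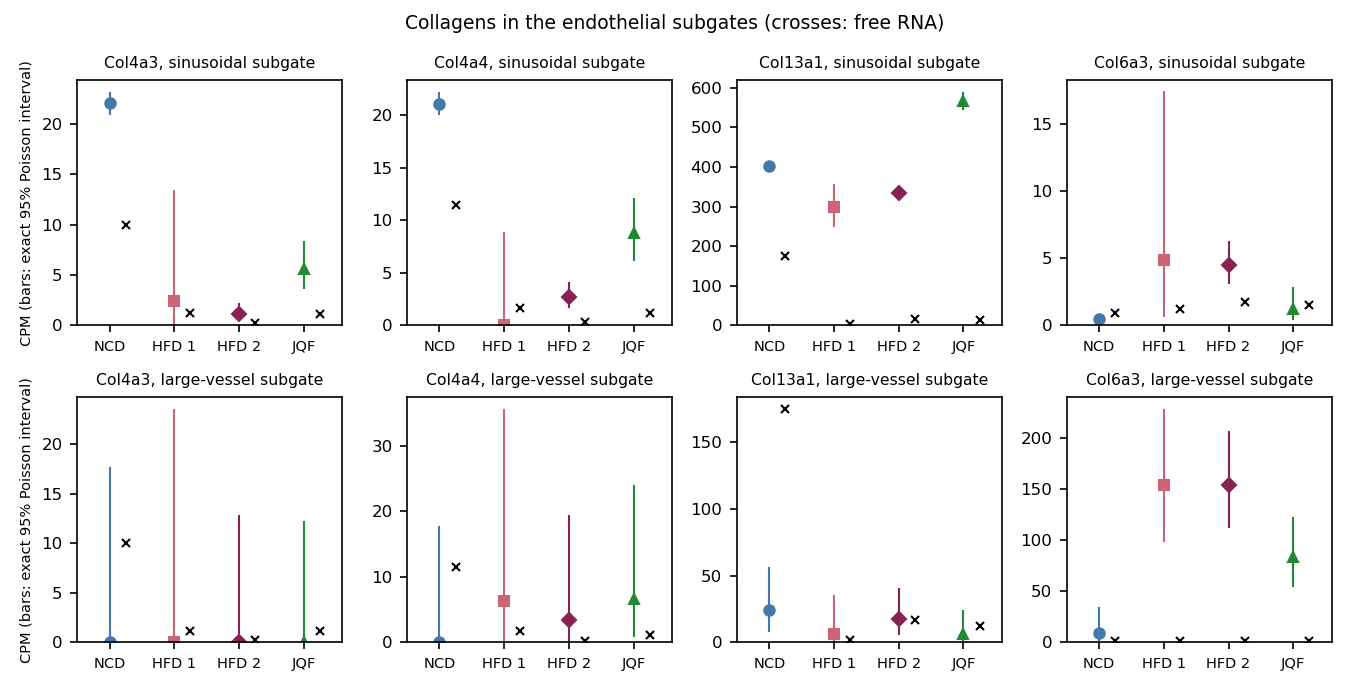
Level of Col4a3, Col4a4, Col13a1 and Col6a3 in CPM in sinusoidal (top) and large-vessel (bottom) endothelial cells of each library, with exact 95% Poisson intervals as bars and crosses for the level in free RNA of the same library; each panel has its own axis from 0. Col4a3 and Col4a4 stand at 22.1 and 21.1 CPM in NCD sinusoidal cells and under 9 CPM in the other cells drawn, with NCD free RNA at 10.0 and 11.5 CPM, and Col6a3 is at 153, 154 and 83.2 CPM in large-vessel cells of the HFD libraries and JQF against 9.64 CPM in NCD.

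Between JQF and HFD, which share the HFD libraries with the comparison above, 1 of the 17 endothelial collagens was higher and 0 lower, against 0.437% and 0.674% of all genes. This was Col13a1, at 490 CPM in JQF against 187 and 297 CPM in HFD, a log2 difference of 0.99 (SE 0.25, adjusted p = 0.0284, edgeR). It was called under 3 of 8 alternatives, with the adjusted p reaching 0.573. Among sinusoidal cells it was 567 CPM against 300 and 334 CPM, with a fold change of 0.85 (adjusted p = 0.0359) that DESeq2 alone of 8 alternatives did not call, and it was the 1 of 14 collagens called there (all genes: 1.63% called, 0.657% higher and 0.978% lower). Col4a3 (1.96, adjusted p = 0.187), Col4a4 (1.72, adjusted p = 0.139) and Col6a3 (-1.70, adjusted p = 0.143) were not called in the endothelial gate, nor were Col4a3 (2.20, adjusted p = 0.0665) and Col4a4 (1.85, adjusted p = 0.0595) among sinusoidal cells. At an unadjusted p under 0.05 there were 4 of 17 collagens in the endothelial gate and 4 of 14 among sinusoidal cells, and DESeq2 called 0 in each. Over all genes there were 940 of 13506 and 1001 of 13400 at an unadjusted p under 0.05, and DESeq2 called 10 and 12. The SE of Col4a3, Col4a4 and Col6a3 in the endothelial gate was 0.65, 0.54 and 0.54, and a p-value above the threshold does not show that their levels were equal.

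Immune cells carried little collagen, and the levels of their subgates are given without a test between them. Dendritic cells were highest for Col27a1, at 13.4, 25.2, 19.9 and 23.9 CPM from 46, 424, 319 and 418 UMIs, whereas T cells were at 0.364, 0.395, 0.137 and 1.30 CPM. Free RNA held Col27a1 at 13.8, 10.5, 7.53 and 6.60 CPM, so the NCD value of dendritic cells did not exceed it and the others did. Col23a1, a transmembrane collagen, was at 7.29, 7.42, 6.29 and 5.90 CPM in dendritic cells and at 0.849, 1.98, 1.71 and 1.11 CPM in T cells. In each library dendritic cells were above T cells for both genes, and for Col23a1 they were also above free RNA (3.82, 4.06, 1.19 and 1.81 CPM).

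In neutrophils and macrophages other members were detected. Col15a1 was at 4.69, 11.9, 11.9 and 22.2 CPM in neutrophils and at 8.26, 7.26, 2.96 and 6.39 CPM in macrophages. The fibrillar gene Col11a2 was at 4.95, 6.69, 5.99 and 5.21 CPM in macrophages and at 6.25, 8.36, 6.22 and 6.92 CPM in neutrophils, against 0.919 to 2.50 CPM in T cells. Col8a2, of the short-chain network class, was at 4.41, 6.01, 5.82 and 5.63 CPM in NK cells, from 2 to 16 UMIs. In T cells it was at 0.485, 2.83, 1.37 and 3.83 CPM. Col17a1, the collagen of hemidesmosomes, was found in plasmacytoid dendritic cells at 9.08, 6.0, 3.12 and 7.91 CPM from 5, 2, 7 and 16 UMIs. Free RNA held Col15a1 at 0.910, 3.35, 3.17 and 3.13 CPM, which was above the macrophage level in HFD replicate 2 and under the other values given for neutrophils and macrophages. For Col11a2 it was at 1.82, 5.98, 5.41 and 3.46 CPM, under the macrophage and neutrophil levels of each library. It was at most 2.39 CPM for Col8a2 and 0.728 CPM for Col17a1. Monocytes held Col4a1 at 2.68, 6.31, 4.51 and 6.23 CPM, under the 168, 9.80, 26.3 and 18.8 CPM of free RNA in the same libraries.

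**Figure D5:**
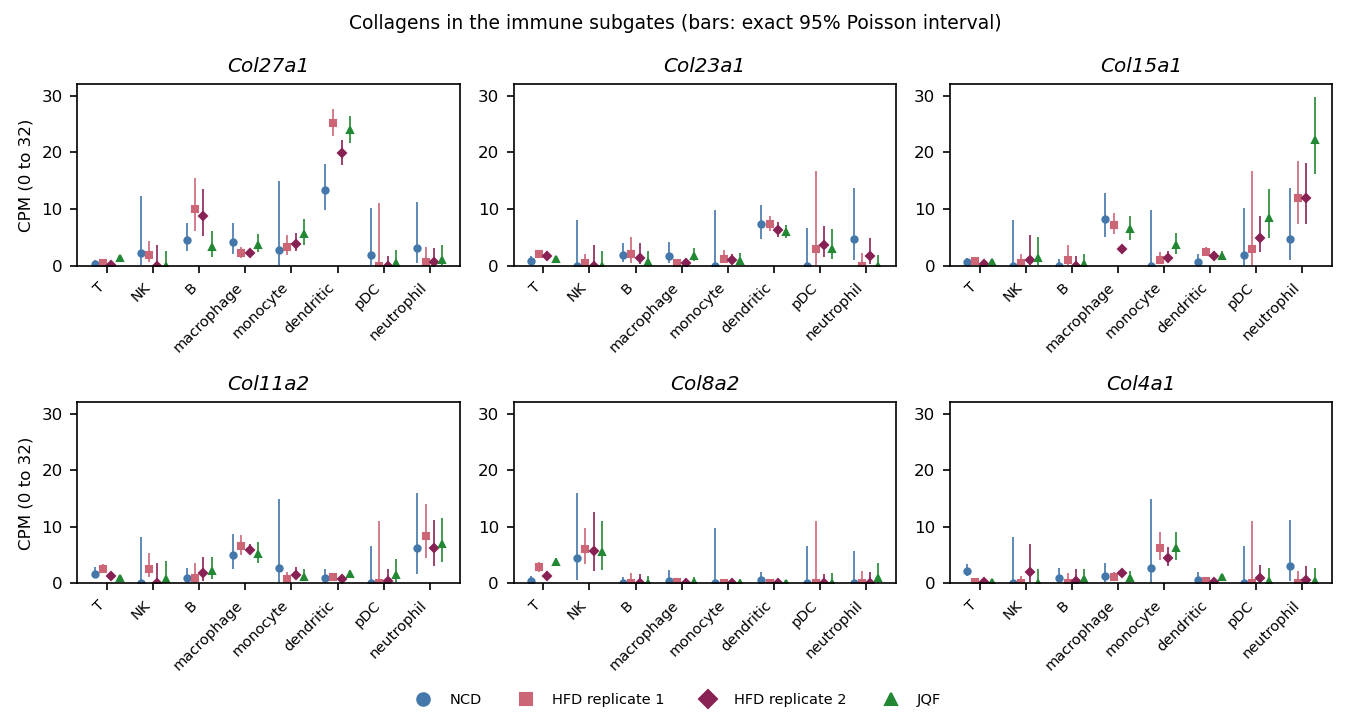
Level of 6 collagens in 8 immune subgates (pDC, plasmacytoid dendritic cells) and 4 libraries in CPM, on axes from 0 to 32, with exact 95% Poisson intervals as bars. Col27a1 reaches 25.2 CPM in dendritic cells and Col15a1 22.2 CPM in neutrophils, and Col4a1 stays at or under 6.31 CPM in every subgate.

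In the immune gate as a whole, 26 collagens passed the filter, and edgeR called 0 of them between HFD and NCD and 0 between JQF and HFD, where 0.0% of all 18996 genes were called in either comparison. At an unadjusted p under 0.05 there were 2 and 1 collagens, and DESeq2 called 1 and 0. Over all genes there were 4974 and 1287 at an unadjusted p under 0.05, and DESeq2 called 1819 and 148. In T cells 1 of 13 collagens was called between HFD and NCD, where 3.96% of genes were higher and 6.68% lower. This was Col18a1, at 2.91, 0.198, 0.137 and 0.697 CPM from 24, 3, 2 and 22 UMIs, a log2 difference of -4.08 (SE 1.00, adjusted p = 0.0344, edgeR). Its NCD level was under the 38.9 CPM of NCD free RNA, and the call was lost under 3 of the 7 alternatives that gave an adjusted p. DESeq2 called 0 of the 13 and gave no adjusted p for Col18a1. At an unadjusted p under 0.05 there were 5 of the 13, and the other 4 were Col4a1 (-3.19), Col4a2 (-3.06), Col13a1 (-3.72) and Col8a2 (2.07). Over all genes tested in T cells there were 4115 of 14870, and DESeq2 called 1021. In B cells, macrophages, dendritic cells and neutrophils, 0 of 2, 10, 10 and 4 tested collagens were called, where 13.2%, 12.3%, 18.0% and 13.9% of genes were. At an unadjusted p under 0.05 there were 0, 1, 1 and 1 of them, and DESeq2 called 0 in each. Over all genes there were 3643 of 10984, 4492 of 13152, 5073 of 14309 and 2268 of 8929 at an unadjusted p under 0.05. DESeq2 called 316, 852, 1253 and 287 of all genes in these subgates. Between JQF and HFD, edgeR called 0 of the 13, 2, 10, 10 and 4 tested collagens of T cells and these subgates, in that order. Of the 14870, 10984, 13152, 14309 and 8929 genes tested, 85, 7, 6, 0 and 37 were higher and 55, 0, 0, 0 and 52 lower.

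The enzymes and chaperones that act on collagens were followed with a list of 53 genes in 5 roles, of which 52 were listed under these symbols and Ctage5 was not. Between the stellate-marker and the endothelial gate, 48 passed the filter, 22 were higher and 5 lower, against 9.98% and 11.1% of all genes tested. Of those that remove the propeptides of fibrillar chains, 6 of 7 were higher, among them the N-proteinase gene Adamts2 by 9.79 on the log2 scale (SE 0.63), the C-proteinase Bmp1 by 8.30 and Pcolce2, which encodes a C-proteinase enhancer, by 9.04. Of the cross-linking enzymes 4 of 6 were higher, with Loxl1 at 10.31 and Lox at 5.26. Lox was at 0, 146, 96.5 and 105 CPM and Loxl1 at 36.5, 0, 611 and 328 CPM in the stellate-marker gate, so the NCD cells were low for both. Of 15 hydroxylation and glycosylation enzymes 5 were higher and 2 lower, with P4ha3 at 6.09 and P3h4 at 3.5. In the stellate-marker gate P4ha3 had 0, 0, 1 and 18 UMIs and P3h4 1, 0, 7 and 31 UMIs, most of them in JQF. Of 9 folding and export genes 3 were higher, with Fkbp10 at 4.92 and Kdelr3 at 4.56. Of 11 collagen receptors 4 were higher, including Ddr2 at 7.51 and Itga11 at 7.34, and 3 lower, including Adgrg1 at -3.63. The count of 27 calls was 17 in the strict gate and 13 without JQF. The share of all genes called in those fits is not given, so nothing is read from this change.

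In the endothelial gate 40 of the 52 genes passed, and between HFD and NCD 11 were higher and 2 lower, against 6.23% and 7.72% of all genes tested. Serpinh1, the collagen chaperone HSP47, was at 45.3, 260, 214 and 274 CPM, a log2 difference of 2.23 (SE 0.27, adjusted p = 2.98e-09, edgeR), and every other library was above NCD. Plod2, a lysyl hydroxylase, was at 1.89, 29.9, 9.65 and 11.6 CPM with a fold change of 2.99 (SE 0.57). Loxl2, a cross-linking enzyme, was at 14.4, 26.0, 39.9 and 16.0 CPM with a fold change of 1.16. Colgalt2, which adds galactose to collagen hydroxylysine, was lower at 25.2, 3.90, 6.15 and 6.20 CPM (-2.28, SE 0.43), as was the type III collagen receptor Adgrg1 (-1.27). DESeq2 called 3 genes of the list where edgeR called 13. Over all 13506 genes tested DESeq2 called 624, where edgeR called 841 higher and 1043 lower. Among sinusoidal cells 5 of 39 were higher and 2 lower (all genes: 5.42% higher and 7.72% lower), with Serpinh1 at 2.23, Loxl2 at 1.47 and Colgalt2 at -2.26. DESeq2 called 1 of these 39 and 459 of all 13400 genes tested. Between JQF and HFD, edgeR called 0 of 40 genes in the endothelial gate, where 5 were at an unadjusted p under 0.05 and DESeq2 called 0. Over all genes there were 940 of 13506 at an unadjusted p under 0.05, and DESeq2 called 10. Among sinusoidal cells 1 of 39 was called, near the 1.63% of all genes, and DESeq2 called 0, against 12 of all 13400 genes. This was Loxl2, at -1.25 (SE 0.34, adjusted p = 0.0197, edgeR).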

How the data were processed

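Single-cell RNA was captured with a 10x 3′ v3.1 kit from perfused, digested livers after red cell lysis and dead cell removal. The authors deposited UMI counts per gene and barcode on mm10, as filtered and raw matrices. The submitters' processing notes name Cell Ranger 6.0.1 and Seurat 4.0.3, while the headers of the deposited files name other Cell Ranger releases, so whether intronic reads were counted is not settled. Filtered matrices were used, with 67615639 to 108062769 UMIs in kept cells per library, and raw matrices for free RNA.

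A cell entered 1 of 4 gates with at least 3 UMIs and at least 2 genes of the gate's markers, provided that this sum was at least 3 times that of every other gate. No collagen was a marker, and cells that met no gate were left ungated. Subgates used the same rule. UMIs were summed per library and gate and tested with edgeR 4.0.16 in R 4.3.3 (TMM, filterByExpr, quasi-likelihood test, Benjamini-Hochberg adjustment over all genes). Gates were compared with the library as a block over sums of at least 10 cells, and diets within gates with at least 50 cells in every library. Shares carry Clopper-Pearson and levels exact Poisson 95% intervals, which cover counting error only, and the floor is 3 counts. Python 3.11.15, scipy 1.17.1 and numpy 2.4.6 were used.

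Alternatives were DESeq2 1.42.0, its size factors in edgeR, library totals, no gene filter, at least 5 marker UMIs, no UMI of another gate's markers, at least 1000 genes with at most 10% mitochondrial UMIs, removal of Scrublet doublets (scanpy 1.11.5, 0.8% per 1000 barcodes), other class members and leaving out each library. Doublets were kept otherwise. The split by leading list, the stomach-gene cells and the epithelial diet fit were added after seeing the data. The fits were tested on simulated data.

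Collagens that passed the filter of a fit entered its counts, and not all of them were named. Those with at least 20 UMIs in a gate were described by library where a result turned on them. At most 4 genes per role of the processing list were named. Among members not named above, Col25a1 was called higher than in immune cells. Its log2 difference was 4.69 in the stellate-marker and 3.42 in the endothelial gate. Members and lists were chosen with earlier results of these data known. Col18a1, Col9a3 and Col10a1 overlap a gene on the other strand, and their values are uncertain to that extent.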

Additional observations from a re-analysis of the deposited data

Results flagged for a closer look

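The HFD against NCD difference was compared between the endothelial and the immune gate with an interaction term in edgeR, and 3 of 29 collagens were called, near the share of 8.34% over all genes tested. Col13a1 had an interaction of 1.94 on the log2 scale (SE 0.42, adjusted p = 0.000129), with immune levels of 2.01, 0.0650, 0.448 and 0.259 CPM in NCD, HFD replicate 1, HFD replicate 2 and JQF. For Col5a2 it was 2.52 (SE 0.78, adjusted p = 0.0197), with immune levels of 0.447, 0.0325, 0.134 and 0.0470 CPM. For Col4a3 it was -4.82 (SE 1.62, adjusted p = 0.0379), with immune levels of 0.0447, 0, 0.0784 and 0.0353 CPM from 1, 0, 7 and 3 UMIs, too few to measure a change in immune cells. The immune levels of Col13a1 and Col5a2 were highest in NCD, as was their free RNA, at 175, 2.15, 16.6 and 12.5 CPM for Col13a1 and at 8.19, 0.956, 4.22 and 1.48 CPM for Col5a2, and the part of free RNA in these interactions was not tested.

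Cells that met no gate entered no comparison. In ungated cells 29 collagens had at least 20 UMIs. Given here are those for which the exact 95% Poisson interval of another library lay wholly above that of NCD, with the library of the highest level of each. The intervals cover counting error only, and the share of all genes with such a difference was not taken. Nothing is therefore read from how many members met this rule. In JQF, Col3a1 was at 53.7 CPM (NCD 32.7) from 126 UMIs in 3 cells, Col12a1 at 9.37 CPM (NCD 0.297) from 22 UMIs in 1 cell, and Col6a2 at 8.95 CPM (NCD 2.08) from 21 UMIs in 3 cells. In HFD replicate 1, Col18a1 was at 126 CPM (NCD 46.6) from 267 UMIs in 48 cells, Col4a5 at 66.1 CPM (NCD 2.38) from 140 UMIs in 32 cells, and Col4a6 at 14.6 CPM (NCD 0.297) from 31 UMIs in 13 cells. No group held the 4 libraries that a search for outlying libraries needs.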

How the results depend on the processing

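Of the alternative values for counts of calls and fibrillar shares, 149 stayed within the limits set and 21 moved. For single members 1010 kept direction and side of the threshold, 56 lost a call, 1 gained one, 20 moved and 6 turned direction. Restricted to stellate-list-led cells, the difference in fibrillar share was 52.1 percentage points, and with class members changed the mean share was 5.59% in the endothelial, 0.731% in the epithelial and 31.6% in the immune gate. The counts of calls that follow stand without the share of all genes called under the same alternative. Nothing is therefore read about the members from how a count moved. Collagens called between HFD and NCD in sinusoidal cells numbered 5 without a gene filter and 1 with DESeq2, against 2. In the immune gate and 5 subgates together, 1 call became 2 with library totals, 6 without a filter, 0 with at least 5 marker UMIs, 2 in the strict gate and 0 without Scrublet doublets. The single endothelial call between JQF and HFD became 0 with DESeq2 size factors, DESeq2, at least 5 marker UMIs, the strict gate and Scrublet removal, and the sinusoidal one became 0 with DESeq2 and 2 in the strict gate. Processing genes called numbered 17 in the strict gate and 13 without JQF for stellate-marker against endothelial cells (27), and 3 with DESeq2 for HFD against NCD (13). Without JQF the stellate-marker gate held no Col4a6 UMI. The fitted Col4a6 values of -3.03 against endothelial and -4.15 against immune cells are therefore no measure of size or direction. In the strict gate, Col4a3 and Col13a1 turned to -2.97 and -6.01 (stellate-marker against immune), and Col5a1 and Col12a1 to -2.49 and -2.34 (epithelial against immune). The causes of these turns in the strict gate were not tested. With 1 library left out, the fibrillar difference was 68.7 to 81.8 points, and calls numbered 12 to 20 (stellate-marker against endothelial), 18 to 24 (stellate-marker against immune), 14 to 16 (endothelial against immune) and 10 to 14 (epithelial against immune), with 13 to 26 processing genes. Over the same fits the fitted Col4a6 value ranged from -3.03 to 7.45 against endothelial and from -4.15 to 7.53 against immune cells. The low ends came from the fits without JQF and so without a stellate-marker UMI of this gene. No paired analysis was possible because NCD, HFD and JQF share only replicate number 1. Depth limits the 2 stellate-marker cells of HFD replicate 1, where 3 UMIs equal 438 CPM.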

Other observations

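In NCD, ungated cells held Col14a1 at 126 CPM from 423 UMIs in 24 cells, against 2.36, 11 and 18.7 CPM in HFD replicate 1, HFD replicate 2 and JQF. Col24a1, a minor fibrillar collagen, had 45 UMIs in 10 ungated NCD cells and 0 UMIs in the ungated cells of the other 3 libraries, which allows up to 1.42, 0.569 and 1.28 CPM. Col4a1 in ungated cells was at 159, 39.2, 77.4 and 42.2 CPM. The large-vessel cells held Col5a2 at 405, 19.2, 105 and 79.9 CPM from 84, 3, 30 and 24 UMIs, so NCD was highest for this type V chain while it was lowest for Col6a3.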
